A study of Mus musculus with 10 samples.

Results

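Egr1, Fos, Jun, Junb and Myc are immediate early genes, and Cxcl1 is a chemokine gene that is switched on with them. They are 6 of the 8251 genes tested on the arrays and are measured by 10 of the 10833 probe sets that carry the symbol of a single gene. Of several probe sets of a gene the brightest one on average describes it, and the other probe set, which Egr1, Fos, Junb and Cxcl1 have, served as a check.

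Immediate early genes are transcribed within minutes of a growth factor, a cytokine or a stress, without new protein synthesis, and most encode transcription factors. In liver they are known for their rise at the start of regeneration and after injury. Cxcl1 draws neutrophils to a tissue, and its transcription is driven by NF-kappa B. SREBPs are the transcription factors of cholesterol and fatty acid synthesis, and SCAP is the escort protein that brings them to their site of activation.

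Liver RNA of male mice was studied in 5 groups. TgSREBP-1a and TgSREBP-2 mice overexpressed a human SREBP in its active nuclear form. At an age of 12 to 16 weeks, these mice and wild type littermates (here the high-protein wild type) ate a diet high in protein and low in carbohydrate for 2 weeks. Scap knockout mice carried MX1-Cre and lacked SCAP in liver. At 10 to 12 weeks and on chow, these knockouts and the wild type set beside them (here the chow wild type) had all received 4 injections of polyinosinic-polycytidylic acid, the last 14 days before the livers were taken. This double-stranded RNA mimic is itself an inducer of interferon, and the Mx1 promoter that drives Cre responds to interferon in several cell types.

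RNA of 5 mice was combined to 1 pool per group, and each pool was hybridised to 2 arrays, so n = 2 arrays per group throughout. The p-values measure the spread between hybridisations, compare pools and hold no error between mice. Called means an adjusted p under 0.05 together with a difference of 1.5-fold or more, in a limma fit of all 10 arrays. Values are log2 signals as deposited, and an error after a log2 difference is the standard error of that fit. Duplicate arrays correlated at 0.9921 to 0.9978 over genes. Duplicates lay at least 1.5-fold apart for 151 genes in TgSREBP-1a and 55 in TgSREBP-2, against 101 in the high-protein wild type, and for 6 in Scap knockout, against 0 in the chow wild type. Albumin, the main secreted protein of hepatocytes, lay between 13.48 and 13.85 on all arrays. It is 1 of 6 measured hepatocyte markers and lies near the highest signals of the arrays, 13.82 to 14.03. Of the other markers, Tat was called higher in TgSREBP-1a (12.69 and 12.41, against 11.82 and 11.74 in wild type). Ttr was called lower there (8.96 and 8.75, against 10.30 and 10.15). Albumin alone therefore does not stand for all hepatocyte RNA. In pooled liver RNA, fewer cells of a type and less RNA per cell cannot be told apart.

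Egr1 was 2.24-fold and Cxcl1 2.31-fold higher in Scap knockout than in the chow wild type. Cxcl1 was 2.62-fold lower in TgSREBP-1a and Egr1 1.57-fold lower in TgSREBP-2 than in wild type on the same diet, and Myc was 1.58-fold higher in TgSREBP-1a. Fos, Jun and Junb were called in none of these comparisons. The group means of Cxcl1 spanned 1.62 and those of Egr1 1.46 on the log2 scale, against 0.71 for Myc, 0.52 for Junb, 0.32 for Jun and 0.31 for Fos, on the brightest probe set of each gene. On the other probe sets the spans were 1.09 for Cxcl1, 0.30 for Egr1, 0.70 for Junb and 0.72 for Fos, so the order of the genes depends on the probe set.

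**Figure D1:**
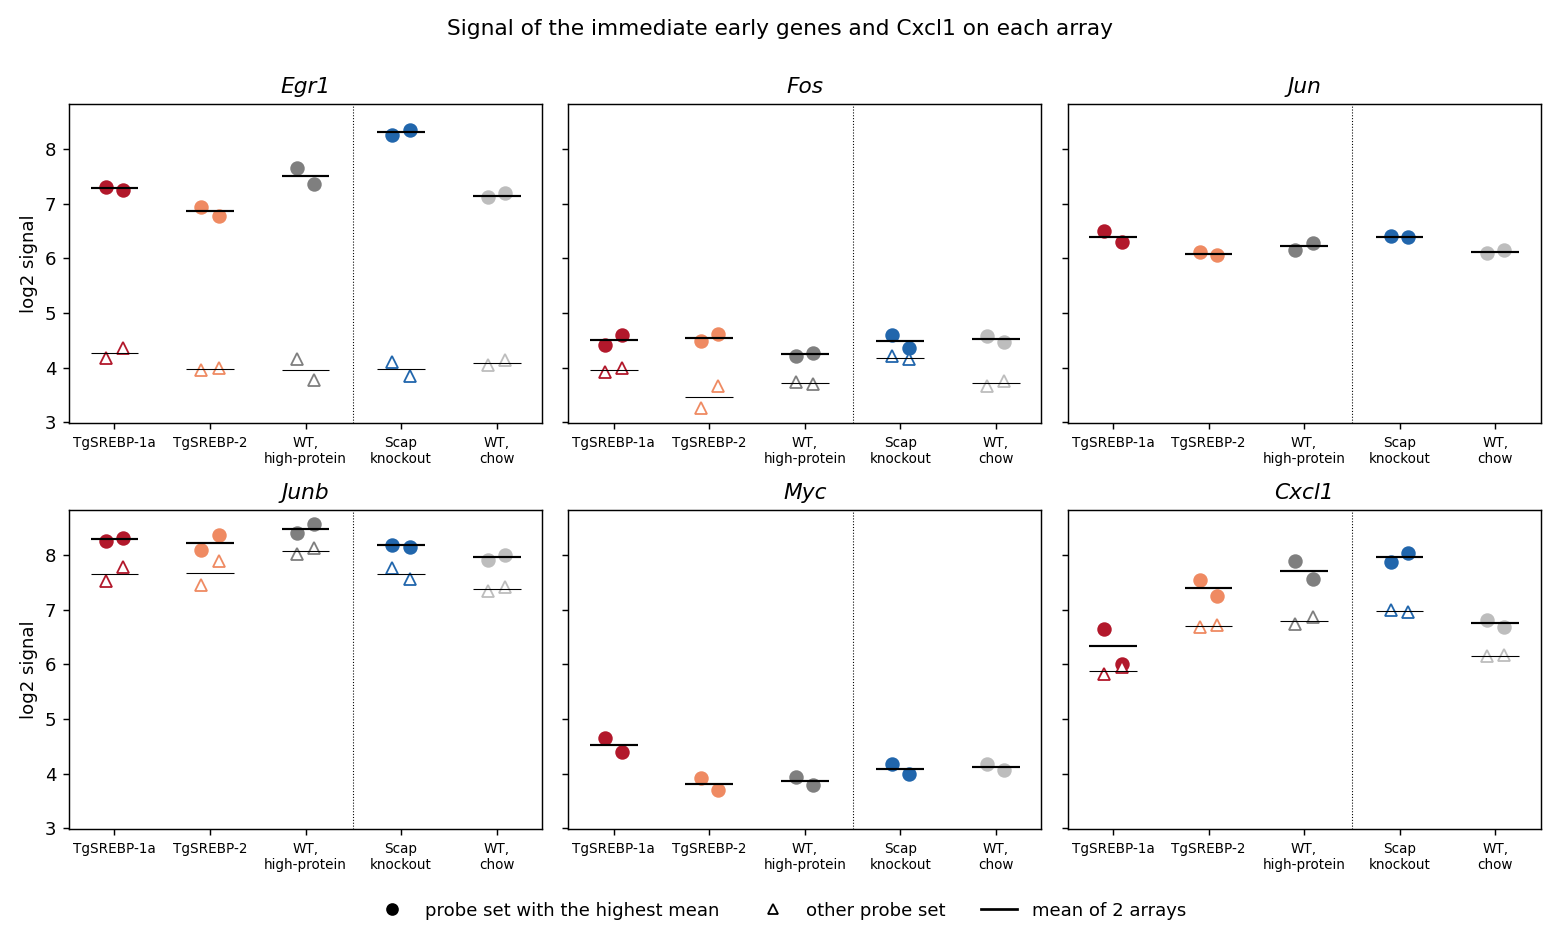
The log2 signal of each gene on each array (vertical axis) is plotted for the 5 groups; filled circles are the probe set with the highest mean, open triangles the other probe set, and bars the mean of 2 arrays, with WT for wild type and a dotted line between the high-protein and the chow set. Egr1 reaches 8.27 and 8.36 in Scap knockout on its brighter probe set only, and both probe sets of Cxcl1 are lowest in TgSREBP-1a.

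Egr1 encodes a zinc finger transcription factor that serum and growth factors induce through the serum response factor. It lies on chromosome 18 from 34861207 to 34864956 (GRCm38.p6). In Scap knockout its log2 signal was 8.27 and 8.36, against 7.12 and 7.19 in the chow wild type. Both knockout arrays were above every other array of the study. Egr1 rose by 1.16 ± 0.11 in Scap knockout (adjusted p = 0.000136), and leaving out any 1 of the 10 arrays gave 1.12 to 1.21.

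In the transgenic set Egr1 had 7.31 and 7.26 in TgSREBP-1a and 6.94 and 6.77 in TgSREBP-2, against 7.65 and 7.36 in wild type. The TgSREBP-2 arrays were the lowest of the study, and neither transgenic pool overlapped with wild type. Egr1 fell by 0.65 ± 0.11 in TgSREBP-2 (adjusted p = 0.00544). Without replicate 1 of wild type the difference was -0.50, and without replicate 2 of TgSREBP-2 it was -0.56, both short of 1.5-fold. In TgSREBP-1a the difference was -0.22 ± 0.11 (adjusted p = 0.198), with a 95% interval of -0.46 to 0.01. Egr1 was higher in TgSREBP-1a than in TgSREBP-2 by 0.43 ± 0.11 (adjusted p = 0.0259), which is below 1.5-fold.

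The order of Egr1 levels was Scap knockout, the high-protein wild type, TgSREBP-1a, the chow wild type and TgSREBP-2. Neighbours were taken to differ beyond their spread where the gap between their nearest arrays exceeded the larger gap between duplicates. By this measure the high-protein wild type and TgSREBP-1a did not differ, and the other 3 pairs of neighbours did. The gap between TgSREBP-1a and the chow wild type was 0.0714, only just above the 0.0627 between duplicates, and likewise that between the chow wild type and TgSREBP-2 was 0.179, beside 0.173. The sets differ in diet, age, injections and possibly strain, so an order across them cannot be assigned to genotype.

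The other Egr1 probe set, 161802_i_at, had signals of 3.77 to 4.35 on all arrays, and its mean of 4.05 was in the lowest 25% of genes, which ended at 5.58. It gave 4.10 and 3.85 in Scap knockout, against 4.04 and 4.14 in the chow wild type, and 3.96 and 3.99 in TgSREBP-2, against 4.16 and 3.77 in wild type. In both comparisons its groups overlapped, whereas the brighter probe set, 98579_at, separated them, and it was called in no comparison (differences of -0.11 ± 0.13 for Scap knockout and 0.01 ± 0.13 for TgSREBP-2). The calls of Egr1 therefore rest on 98579_at, whose mean was 7.42.

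Fos, Jun and Junb encode subunits of AP-1, a leucine zipper dimer. Fos does not pair with itself and binds DNA with a Jun protein, whereas Jun proteins also pair with each other, and JunB is a weaker activator than Jun at many promoters. Fos lies on chromosome 12 from 85473890 to 85477274, Jun on chromosome 4 from 95049036 to 95052222 and Junb on chromosome 8 from 84976909 to 84978748.

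RefSeq promoters of build GRCm38.p6 were found for 4 of the 6 genes, Fos, Jun, Junb and Cxcl1. Each is printed from 150 bases before to 50 bases after the annotated start, 5′ to 3′ on the strand of the gene, with matches to the searched motifs in capitals, to show which elements lie next to the start of each gene. The positions are chr12:85473740-85473939 on the plus strand for Fos, chr4:95052173-95052372 on the minus strand for Jun, chr8:84978699-84978898 on the minus strand for Junb and chr5:90891095-90891294 on the plus strand for Cxcl1.
Fos: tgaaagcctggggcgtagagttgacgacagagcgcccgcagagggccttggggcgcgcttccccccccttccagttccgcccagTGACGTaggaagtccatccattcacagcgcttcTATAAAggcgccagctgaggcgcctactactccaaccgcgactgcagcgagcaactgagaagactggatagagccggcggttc
Jun: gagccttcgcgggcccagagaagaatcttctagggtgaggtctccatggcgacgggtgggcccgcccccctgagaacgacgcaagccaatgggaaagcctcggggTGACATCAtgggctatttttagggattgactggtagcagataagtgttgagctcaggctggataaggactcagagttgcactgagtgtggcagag
Junb: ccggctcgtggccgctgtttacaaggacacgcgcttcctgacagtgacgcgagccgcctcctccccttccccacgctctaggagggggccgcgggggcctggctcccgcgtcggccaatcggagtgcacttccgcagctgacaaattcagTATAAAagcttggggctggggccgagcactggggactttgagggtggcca
Cxcl1: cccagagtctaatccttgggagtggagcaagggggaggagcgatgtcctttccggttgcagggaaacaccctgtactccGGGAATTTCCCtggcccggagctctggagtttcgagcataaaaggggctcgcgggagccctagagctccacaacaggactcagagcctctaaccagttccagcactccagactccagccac

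Both strands were searched, and shares are over 27025 promoters cut to the same window. Jun held TGACATCA at -45 to -38, a match to TGACNTCA, which covers the cyclic AMP response element and its AP-1-like variant and occurred in 7.26% of promoters. Fos held TGACGT, the core of that element, at -66 to -61, a motif found in 6.38%, and the TATA box TATAAA at -33 to -28, found in 9.37%. A full response element can also hold this core, so these shares overlap. Junb held TATAAA at 1 to 6 of its annotated start. Cxcl1 held a pair of overlapping matches to the NF-kappa B site, GGGAATTTCC at -71 to -62 and GGAATTTCCC at -70 to -61, and this motif occurred in 2.86% of promoters. None of the 4 windows held the AP-1 site TGANTCA (5.37% of promoters), the E box CACGTG (5.52%), the EGR site GCGNGGGCG (4.73%), the serum response CArG box (1.06%) or the sterol regulatory element TCACNCCAC (0.807%). These are matches of letters in a short window and say nothing of binding.

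Junb had 8.26 and 8.32 in TgSREBP-1a and 8.09 and 8.37 in TgSREBP-2, against 8.40 and 8.57 in the high-protein wild type. Both transgenic pools lay below wild type, with differences of -0.20 ± 0.10 and -0.25 ± 0.10 (adjusted p = 0.244 and 0.243), neither called. In Scap knockout Junb had 8.19 and 8.16, against 7.92 and 8.0 in the chow wild type, a difference of 0.22 ± 0.10 with a 95% interval of -0.02 to 0.45 (adjusted p = 0.575). Its dimmer probe set, 102362_i_at, gave -0.44 ± 0.14, -0.41 ± 0.14 and 0.27 ± 0.14 in the same comparisons, all with the sign of the brighter one and none called. Of neighbours in the order of levels, only Scap knockout and the chow wild type, the lowest group, differed beyond their spread.

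Jun has a single probe set here. It had 6.50 and 6.30 in TgSREBP-1a and 6.11 and 6.06 in TgSREBP-2, against 6.16 and 6.28 in the high-protein wild type. The TgSREBP-1a arrays were above and the TgSREBP-2 arrays below wild type, by 0.18 ± 0.09 and -0.14 ± 0.09 (adjusted p = 0.203 and 0.48). Between the transgenic pools the difference was 0.32 ± 0.09 (adjusted p = 0.0453), or 1.25-fold, below the minimum fold. In Scap knockout Jun had 6.41 and 6.39, against 6.09 and 6.15 in the chow wild type. The difference of 0.28 ± 0.09 had an unadjusted p of 0.00921 and an adjusted p = 0.19, and its 95% interval ran from 1.06-fold to 1.39-fold. No pair of neighbours in the order of Jun levels differed beyond its spread.

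Fos was dim. Its main probe set, 161716_at, had 4.41 and 4.59 in TgSREBP-1a and 4.48 and 4.62 in TgSREBP-2, against 4.22 and 4.26 in the high-protein wild type. In Scap knockout it had 4.60 and 4.35, against 4.57 and 4.46 in the chow wild type, so that the Scap groups overlapped and the transgenic pools did not overlap with wild type. The differences were 0.26 ± 0.11, 0.31 ± 0.11 and -0.04 ± 0.11 for TgSREBP-1a, TgSREBP-2 and Scap knockout (adjusted p = 0.131, 0.148 and 0.993). For Scap knockout the 95% interval of -0.27 to 0.20 leaves room for a rise of up to 1.15-fold. No neighbours in its order of levels differed beyond their spread.

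The other Fos probe set, 160901_at, took another course. It had 4.21 and 4.15 in Scap knockout, against 3.67 and 3.76 in the chow wild type, a difference of 0.46 ± 0.12 (adjusted p = 0.10). It had 3.91 and 4.0 in TgSREBP-1a and 3.25 and 3.66 in TgSREBP-2, against 3.74 and 3.70 in wild type. The signs of the probe sets agreed for TgSREBP-1a and were opposite for TgSREBP-2 (-0.26 ± 0.12) and Scap knockout. The means of the probe sets, 4.46 and 3.80, were close to each other and both in the lowest 25% of genes, so the sign of Fos depends on the probe set.

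Myc encodes a transcription factor that binds E boxes with Max and drives ribosome production and cell growth. It lies on chromosome 15 from 61985341 to 61990361 and has a single probe set, with a mean of 4.08 in the lowest 25% of genes. Its signal was 4.65 and 4.39 in TgSREBP-1a and 3.92 and 3.70 in TgSREBP-2, against 3.94 and 3.79 in the high-protein wild type. Both TgSREBP-1a arrays were above all others of the study, and TgSREBP-2 overlapped with wild type. Myc rose by 0.66 ± 0.12 in TgSREBP-1a (adjusted p = 0.00353), with a 95% interval of 1.31-fold to 1.89-fold. The difference was under 1.5-fold when the second wild type array (0.58) or the first TgSREBP-1a array (0.53) was left out.

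Myc was also higher in TgSREBP-1a than in TgSREBP-2, by 0.71 ± 0.12 (adjusted p = 0.00278), or by 0.58 without replicate 1 of TgSREBP-1a. The difference of TgSREBP-2 from wild type was -0.05 ± 0.12 (adjusted p = 0.856, 95% interval -0.32 to 0.21). In Scap knockout Myc had 4.18 and 3.99, against 4.17 and 4.06 in the chow wild type, and the groups overlapped (-0.03 ± 0.12, adjusted p = 0.993). The step from TgSREBP-1a to the next group, the chow wild type, was a gap of 0.223 between nearest arrays and did not exceed the 0.258 between the TgSREBP-1a duplicates.

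Cxcl1 lies on chromosome 5 from 90891245 to 90893121. Its main probe set, 95348_at, had 6.65 and 6.01 in TgSREBP-1a and 7.55 and 7.26 in TgSREBP-2, against 7.89 and 7.56 in the high-protein wild type. The TgSREBP-1a arrays were the lowest of the study, and they also lay 0.64 apart, the widest duplicate gap among the 6 genes. Cxcl1 fell by 1.39 ± 0.19 in TgSREBP-1a (adjusted p = 0.000559), with a range of -1.71 to -1.07 when any 1 of the 10 arrays was left out. The difference of TgSREBP-2 was -0.32 ± 0.19 (adjusted p = 0.444), with an interval of -0.75 to 0.10. Cxcl1 was lower in TgSREBP-1a than in TgSREBP-2, at -1.07 ± 0.19 (adjusted p = 0.00431).

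In Scap knockout Cxcl1 had 7.88 and 8.04, against 6.82 and 6.68 in the chow wild type. The knockout arrays were more than 1 log2 unit above both wild type arrays. Cxcl1 rose by 1.21 ± 0.19 (adjusted p = 0.00588, 95% interval 1.72-fold to 3.10-fold). The adjusted p was 0.07 without replicate 2 of Scap knockout and 0.0893 without replicate 2 of wild type, where the difference remained at 1.13 and 1.14.

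The second Cxcl1 probe set, 95349_g_at, separated the same groups with closer duplicates. It had 5.82 and 5.95 in TgSREBP-1a and 6.68 and 6.72 in TgSREBP-2, against 6.74 and 6.86 in the high-protein wild type. It had 6.99 and 6.96 in Scap knockout, against 6.15 and 6.17 in the chow wild type. In a fit of all probe sets it was called lower in TgSREBP-1a (-0.92 ± 0.08, adjusted p = 2.66e-05) and higher in Scap knockout (0.82 ± 0.08, adjusted p = 0.000272), and not called in TgSREBP-2 (-0.10 ± 0.08, adjusted p = 0.599). The probe sets carry the same accession in the annotation and are not independent measurements of the pools.

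The order of Cxcl1 levels was Scap knockout, the high-protein wild type, TgSREBP-2, the chow wild type and TgSREBP-1a. Only TgSREBP-2 and the chow wild type, neighbours in this order, differed beyond their spread. The wild type pools themselves differed. Cxcl1 was 1.97-fold higher in the high-protein wild type than in the chow wild type (0.98 ± 0.19, adjusted p = 0.00636), so the highest and the lowest genotype of the study are each read against another baseline. That call was lost without replicate 2 of the chow wild type (adjusted p = 0.0668). Junb stood 0.52 ± 0.10 higher in the same comparison (adjusted p = 0.00679), or 1.44-fold, and its dimmer probe set reached 0.70 ± 0.14 (adjusted p = 0.00843). Egr1 differed by 0.35 ± 0.11 (adjusted p = 0.0388), below 1.5-fold. These pools differ in diet, age, injections and possibly strain, whose parts cannot be told apart.

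**Figure D2:**
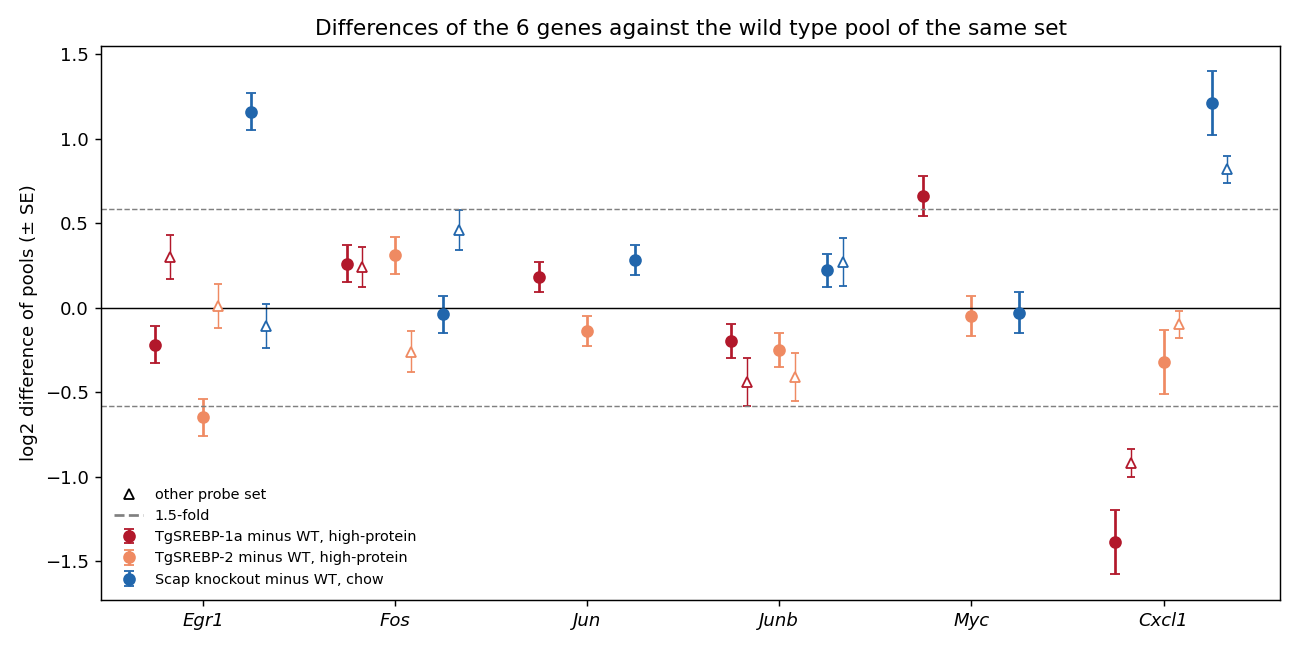
The log2 difference of each gene from the wild type pool of the same set (vertical axis, bars are the standard error of the fit) is plotted for TgSREBP-1a, TgSREBP-2 and Scap knockout, with filled circles for the main probe set, open triangles for the other one and dashed lines at 1.5-fold. Both probe sets of Cxcl1 lie below the lower line for TgSREBP-1a and above the upper line for Scap knockout, whereas the other Egr1 probe set lies near 0 for Scap knockout.

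Of the 6 genes, 1 rose and 1 fell in TgSREBP-1a, where 7.37% of all genes were called (4.78% higher, 2.59% lower). For TgSREBP-2, 1 fell and none rose, with 2.57% of all genes called, 2.18% higher and 0.388% lower. In Scap knockout 2 rose and none fell, with 1.66% of all genes called, 0.739% higher and 0.921% lower. Between TgSREBP-1a and TgSREBP-2 1 was called higher and 1 lower, with 5.19% of all genes called, 2.24% higher and 2.95% lower. Between the high-protein and the chow wild type 1 was called, higher, with 5.62% of all genes called, 1.28% higher and 4.34% lower. The 6 genes were chosen with earlier results of these data known, so these counts describe them and show nothing about immediate early genes in general. The arrays of TgSREBP-1a and wild type did not overlap for 6 of the 6 genes, but this was so for 51.6% of all genes. For TgSREBP-2 the count was 5 (43.8% of all genes) and for Scap knockout 4 (43.7%). Between the transgenic pools it was 4 (44.7%), and between the wild type pools 6 (66%). The median difference of the 6 genes was -0.01 for TgSREBP-1a, -0.20 for TgSREBP-2 and 0.25 for Scap knockout, beside -0.03, -0.02 and 0 over all genes.

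The transgenic comparisons share their wild type arrays. The difference between a transgenic effect and the Scap knockout effect was tested in the same fit, as each effect has its own wild type. For Egr1 the effect of TgSREBP-1a minus that of Scap knockout was -1.38 ± 0.15 (adjusted p = 0.000177), and for the effect of TgSREBP-2 it was -1.81 ± 0.15 (adjusted p = 3.87e-05). For Cxcl1 these differences were -2.60 ± 0.27 and -1.53 ± 0.27 (adjusted p = 0.000131 and 0.00843). For the TgSREBP-2 effect on Cxcl1 the adjusted p was up to 0.0572 with 1 array left out. For Myc only the effect of TgSREBP-1a differed (0.68 ± 0.17, adjusted p = 0.0273), and that call was lost in 5 of 10 fits with 1 array left out, where the adjusted p reached 0.121. Among Fos, Jun and Junb none was called in these tests, in which 7.42% of all genes were called for TgSREBP-1a (4.65% higher, 2.76% lower) and 3.79% for TgSREBP-2 (2.78% higher, 1.02% lower).

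Of 16 other immediate early transcription factors measured, Klf6 and Jund rose in TgSREBP-1a and none fell. Of all genes, 4.78% were called higher and 2.59% lower there, 2.57% were called in TgSREBP-2 and 1.66% in Scap knockout. Klf6, a zinc finger factor, had 7.32 and 6.88 in TgSREBP-1a, against 6.07 and 5.93 in wild type (1.09 ± 0.13, adjusted p = 0.000212). Jund, the AP-1 subunit that is present also in resting cells, had 11.61 and 11.62, against 10.93 and 10.94 (0.68 ± 0.08, adjusted p = 0.000125). Both had TgSREBP-1a arrays above all others of the study. Limma called 0 of the 16 in TgSREBP-2 and 0 in Scap knockout, where 1 and 3 had an unadjusted p under 0.05. The medians of the list were -0.04, -0.11 and 0.03 for TgSREBP-1a, TgSREBP-2 and Scap knockout.

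Of 18 measured genes of feedback and early response, 4 rose and 1 fell in TgSREBP-1a, and the median was 0.07. Of all genes, 4.78% were called higher and 2.59% lower there. Ccn2, a matricellular protein, had 5.94 and 5.72 in TgSREBP-1a, against 4.69 and 4.61 in wild type (1.18 ± 0.11). Sgk1, a kinase induced by serum and glucocorticoids, rose by 1.04 ± 0.15. It had 6.99 and 6.62 in TgSREBP-1a, against 5.93 and 5.61 in wild type, and overlapped with the chow wild type at 6.81 and 6.66. Dusp6, the phosphatase that switches off ERK, rose by 0.93 ± 0.17, although its dimmer probe set stood at 0.11. Btg1, an antiproliferative gene outside the limit of 4 names per list, stood at 0.69 ± 0.20 and lost its call in 7 of 10 fits with 1 array left out. Socs2, which damps growth hormone signalling, fell in all 3 comparisons, by 0.96 ± 0.13 with TgSREBP-1a, 0.62 ± 0.13 with TgSREBP-2 and 0.73 ± 0.13 with Scap knockout, and was the only one of the 18 called in TgSREBP-2 and in Scap knockout. Its call was lost without replicate 1 of the high-protein wild type or either TgSREBP-2 array (adjusted p up to 0.116), and without replicate 2 of Scap knockout or either chow-fed array (adjusted p up to 0.136).

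Between the transgenic pools 4 of these 18 genes were called, all higher in TgSREBP-1a, beside 2.24% of all genes called higher and 2.95% lower. Dusp1, a phosphatase of stress kinases and a classical immediate early gene, was among them. It had 8.35 and 7.78 in TgSREBP-1a, against 7.17 and 7.02 in TgSREBP-2, a difference of 0.97 ± 0.15 (adjusted p = 0.00177). The arrays of the other 3 pools lay at 7.36 to 7.79. Ccn2 was higher by 1.14 ± 0.11 in the same comparison, and Sgk1 and Btg2 were called too. Without replicate 2 of TgSREBP-2 Sgk1 stood at 0.47 and Btg2 at 0.55, both short of 1.5-fold. Sgk1 was also short of it without replicate 1 of TgSREBP-1a, at 0.43.

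On the route from growth factor to immediate early gene, 1 of 14 measured genes was called in TgSREBP-1a, beside 7.37% of all genes. The called gene was Egfr, the receptor of epidermal growth factor. Egfr had 8.26 and 8.06 in TgSREBP-1a, against 10.17 and 10.05 in wild type, and 9.98 and 9.78 in TgSREBP-2. The TgSREBP-1a pool stood apart from all 8 other arrays, which lay between 9.78 and 10.17. Egfr fell by 1.95 ± 0.10 (adjusted p = 4.62e-07), and its other probe sets, 101840_at and 101841_at, were also called lower, at -1.21 and -2.44. Limma called 0 of the 14 in TgSREBP-2 and 0 in Scap knockout, with 2 and 1 at an unadjusted p under 0.05.

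In TgSREBP-1a, where 7.37% of all genes were called, Nfe2l2 alone was called among 10 measured AP-1 partners. This leucine zipper factor of the oxidative stress response had 8.27 and 8.02, against 6.69 and 6.73 in wild type, and rose by 1.44 ± 0.11 (adjusted p = 6.23e-06). Its level was alike in Scap knockout, at 8.06 and 8.23, where the chow wild type had 7.61 and 7.67. Limma called 0 of the 10 in TgSREBP-2 and in Scap knockout, with 3 at an unadjusted p under 0.05 in each. Of 10 measured partners and antagonists of Myc, limma called 0 in any of the 3 comparisons, with 2, 0 and 1 at an unadjusted p under 0.05 in TgSREBP-1a, TgSREBP-2 and Scap knockout.

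Of 16 measured genes that Myc is known to activate, 1 rose and 2 fell in TgSREBP-1a, with a median of -0.04. Of all genes, 4.78% were called higher and 2.59% lower there, and 1.66% were called in Scap knockout. Ccnd1, cyclin D1, rose by 1.79 ± 0.12 and had 8.64 and 8.32 in TgSREBP-1a, against 6.58 and 6.81 in wild type. Ldha, lactate dehydrogenase A, fell by 0.99 ± 0.11, and Nme1, a nucleoside diphosphate kinase, fell by 1.0 ± 0.12. Ccnd1 also rose in Scap knockout, by 1.09 ± 0.12, with 7.92 and 7.87, against 6.85 and 6.75 in the chow wild type. The dimmer probe set of Ccnd1, 94231_at, stood at 0.03 and 0.15 in these comparisons, and that of Nme1 at -0.16. Limma called 0 of the 16 in TgSREBP-2, where 4 had an unadjusted p under 0.05.

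Of 16 other chemokines measured, 3 rose and 1 fell in TgSREBP-1a, where 4.78% of all genes were called higher and 2.59% lower. Ccl9, a chemokine of the mouse, had 10.32 and 10.21, against 9.16 and 8.94 in wild type (1.21 ± 0.11). Cxcl9, which draws T cells under interferon gamma, rose by 0.91 ± 0.18 and the monocyte attractant Ccl2 by 0.71 ± 0.17. Cxcl9 had 5.81 and 5.67 in TgSREBP-1a, against 5.14 and 4.53 in wild type on the same diet. The chow wild type was higher than both pools, at 5.95 and 6.17. Ccl2 lost its call without the second wild type array (adjusted p = 0.115) or the first TgSREBP-1a array (adjusted p = 0.0875). Cxcl12, a chemokine that retains blood cells through its receptor Cxcr4, had 7.97 and 7.63, against 9.09 and 8.83, and fell by 1.16 ± 0.13; its other probe sets, 160511_at and 162234_f_at, were called lower too, at -0.63 and -0.87.

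In Scap knockout, where 1.66% of all genes were called, Ccl2 was the only one of the 16 chemokines called. It had 5.71 and 5.68, against 4.77 and 4.83 in the chow wild type, and rose by 0.90 ± 0.17 (adjusted p = 0.0205). Its call was lost without any 1 of these 4 arrays (adjusted p up to 0.189), with the difference at 0.86 to 0.93. Limma called 0 of the 16 in TgSREBP-2, where 3 had an unadjusted p under 0.05. Of 5 measured chemokine receptors, which include the Cxcl1 receptor Cxcr2, limma called 0 in each of the 3 comparisons, with 0 at an unadjusted p under 0.05.

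On the NF-kappa B route, 1 of 20 measured genes rose and 3 fell in TgSREBP-1a, beside 4.78% and 2.59% of all genes. Il1r1, the receptor of interleukin 1, had 5.81 and 6.05, against 7.68 and 7.29 in wild type, and fell by 1.55 ± 0.15 (adjusted p = 4.29e-05). Saa2, an acute phase protein, fell by 1.37 ± 0.12, with 10.50 and 10.54, against 11.96 and 11.81 in wild type on the same diet. The chow wild type was lower than both pools for Saa2, at 8.74 and 9.05, and had 6.37 and 6.36 for Il1r1. Ikbkg, the regulatory subunit of the kinase that frees NF-kappa B, fell by 0.74 ± 0.08 in TgSREBP-1a, while its dimmer probe set stood at -0.30. Lcn2, an iron-binding lipocalin, rose by 0.82 ± 0.12 there. In TgSREBP-2, where 2.18% of all genes were called higher, Saa3, Lcn2 and Saa2 rose, by 1.30 ± 0.09, 1.29 ± 0.12 and 1.19 ± 0.12, and none fell. In Scap knockout, where 0.739% of all genes were called higher, Lcn2 and the adhesion molecule Icam1 rose, by 2.53 ± 0.12 and 0.61 ± 0.11, and none fell. Icam1 lost its call without replicate 1 of Scap knockout or either chow-fed array (adjusted p up to 0.16). The dimmer Lcn2 probe set, 161684_r_at, stood at -0.11, -0.07 and -0.10 in TgSREBP-1a, TgSREBP-2 and Scap knockout. Saa2 shares close sequence with other serum amyloid genes, so its probe sets may also detect them. The list medians for TgSREBP-1a, TgSREBP-2 and Scap knockout were -0.08, 0 and 0.07 for this route and -0.05, -0.09 and 0.11 for the chemokines, beside -0.03, -0.02 and 0 for all genes.

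**Figure D3:**
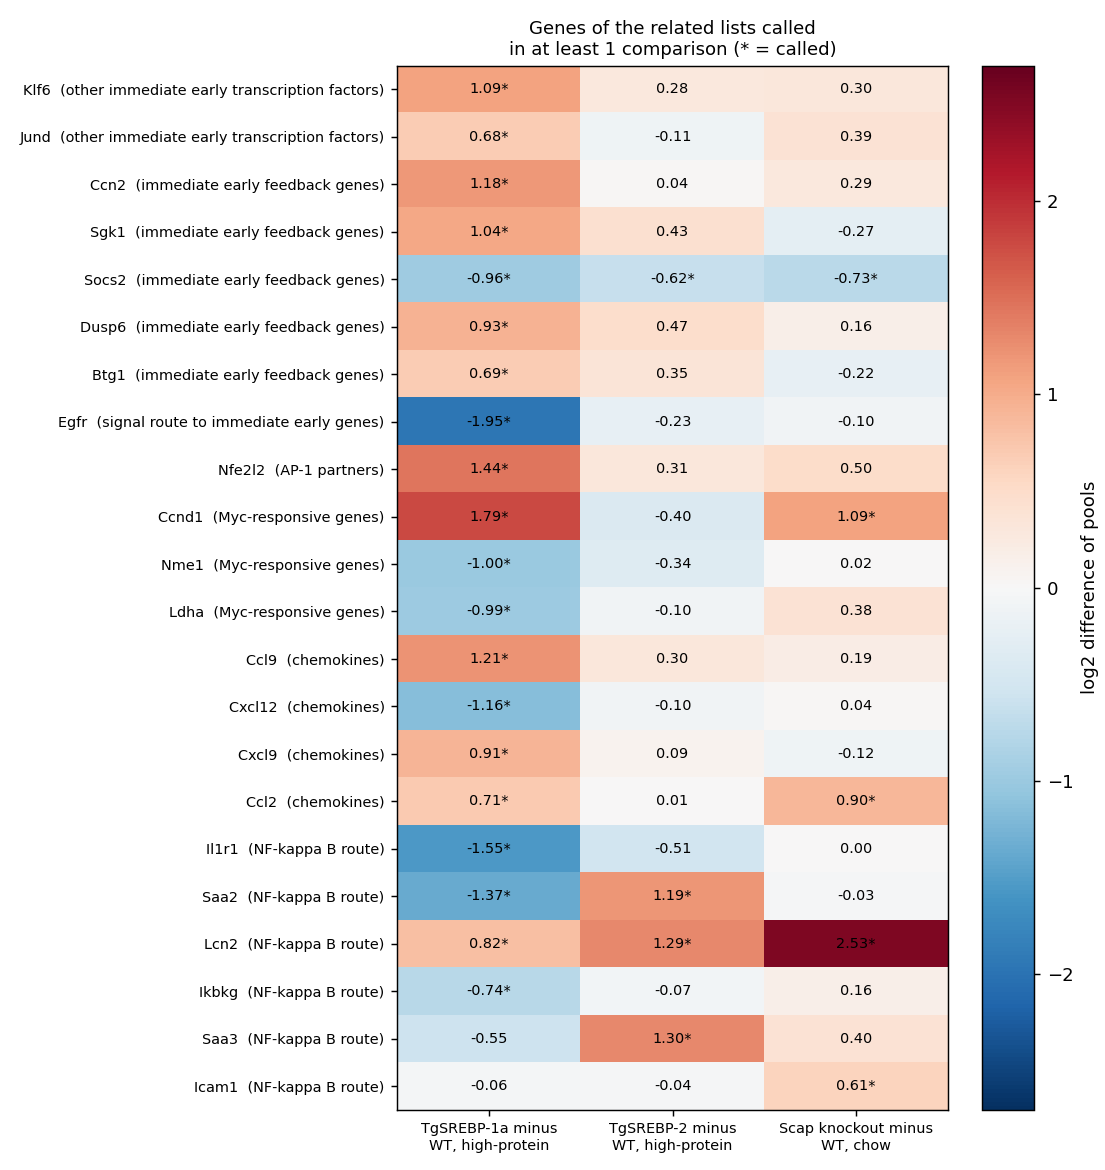
Each cell gives the log2 difference of a gene from the wild type pool of its set (colour scale), for the genes of the related lists called in at least 1 of the 3 comparisons, with an asterisk where the gene was called. Most asterisks stand in the TgSREBP-1a column, where 7.37% of all genes were called, against 2.57% for TgSREBP-2 and 1.66% for Scap knockout. Socs2 at -0.96, -0.62 and -0.73 and Lcn2 at 0.82, 1.29 and 2.53 carry one in all 3. The Socs2 calls for TgSREBP-2 and Scap knockout were lost without some single arrays. The dimmer Lcn2 probe set stood at -0.11, -0.07 and -0.10.

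Markers of other cells were set beside these results. Shares of all genes called higher and lower were 4.78% and 2.59% in TgSREBP-1a and 2.18% and 0.388% in TgSREBP-2. In Scap knockout they were 0.739% and 0.921%. Of 10 neutrophil markers, the cells that Cxcl1 attracts, limma called 0 in TgSREBP-1a, TgSREBP-2 and Scap knockout, with 3, 2 and 0 at an unadjusted p under 0.05. Their summed linear signal was 764 and 804 in TgSREBP-1a and 772 and 810 in TgSREBP-2, against 797 and 846 in wild type, and 797 and 750 in Scap knockout, against 809 and 768 in the chow wild type. The groups lay within the same narrow range in both sets. The dimmest of these markers had log2 signals of 4.27 to 4.45 by group, below the bound of 5.58 used for dim genes. The brightest had 7.83 to 8. A linear sum weighs the brightest markers most, so this flat sum does not show whether neutrophils changed. Of 11 macrophage markers, whose cells can also make Cxcl1, 5 rose in TgSREBP-1a, 3 rose in TgSREBP-2 and none was called in Scap knockout, where 3 had an unadjusted p under 0.05. Their sum was 5231 and 4909 in TgSREBP-1a and 4333 and 4012 in TgSREBP-2, against 3250 and 3188 in wild type. It was 4373 and 4412 in Scap knockout, against 4381 and 4598 in the chow wild type. C1qb and Lyz2 were among the macrophage markers called in both transgenic pools. Their dimmer probe sets stood at 0.12 and 0.18 in TgSREBP-1a and at 0.22 and 0.01 in TgSREBP-2. Lyz2 in TgSREBP-2 stood at 0.58 without replicate 2 of wild type and 0.54 without replicate 1 of TgSREBP-2, both short of 1.5-fold. Among 7 endothelial markers 2 rose in TgSREBP-1a, and limma called 0 in TgSREBP-2 and Scap knockout, with 1 and 0 at an unadjusted p under 0.05. Of 7 lymphocyte markers 1 was called, Ighm, higher in TgSREBP-1a and lower in Scap knockout. Its probe set 93584_at was also called in TgSREBP-1a (1.66) but not in Scap knockout (-0.39). No further probe set of Ighm was called in either comparison. Of 6 hepatocyte markers 1 rose and 1 fell in TgSREBP-1a. Among 7 stellate cell markers limma called 0 in TgSREBP-1a, TgSREBP-2 and Scap knockout, with 4, 2 and 2 at an unadjusted p under 0.05.

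Exocrine pancreas markers fell in TgSREBP-1a and in Scap knockout, 7 of 7 measured in each, beside 2.59% and 0.921% of all genes. Their summed signal was 1350 and 1307 in TgSREBP-1a and 22090 and 21692 in TgSREBP-2, against 16164 and 16247 in wild type. It was 1874 and 1803 in Scap knockout, against 7999 and 8200 in the chow wild type. In TgSREBP-2 2 of the 7, Reg1 and Prss2, rose, by 1.45 ± 0.11 and 0.63 ± 0.07, 6 had an unadjusted p under 0.05, and the list median was 0.58. The dimmer Reg1 probe set, 162312_f_at, stood at -0.04, 0.16 and -0.19 in TgSREBP-1a, TgSREBP-2 and Scap knockout. The list medians were -2.87 for TgSREBP-1a and -2.04 for Scap knockout, where the dimmest markers had log2 signals of 5.64 and 5.93. The part of these cells in the signals of Egr1, Myc and Cxcl1 was not tested.

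**Figure D4:**
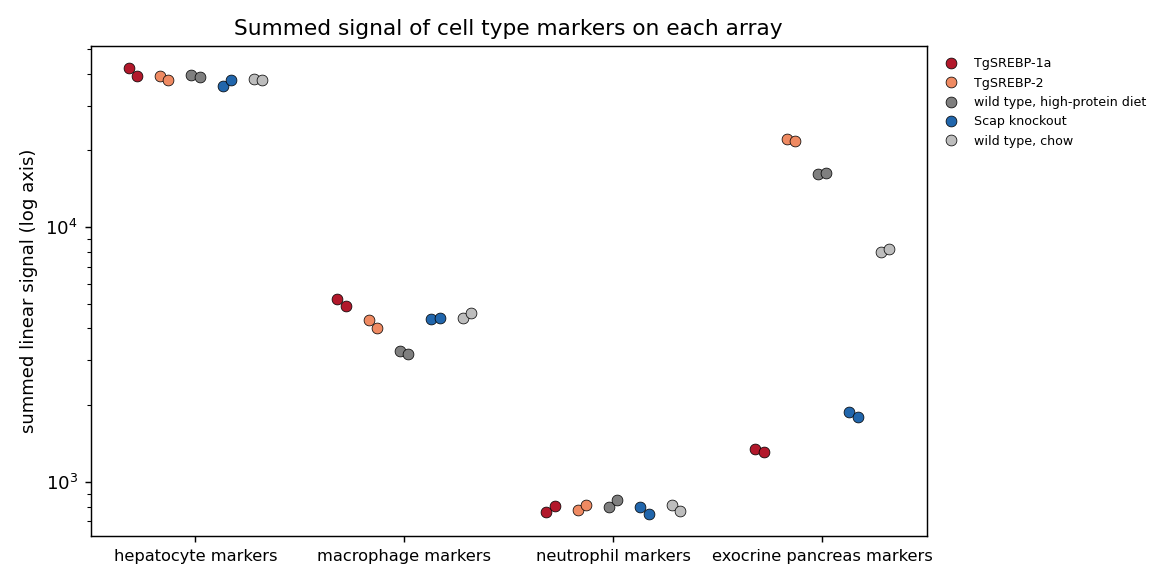
The summed linear signal of each marker list (vertical log axis) is plotted for each array, coloured by group. The 10 neutrophil markers sum to 750 to 846 on every array, whereas the 7 pancreas markers sum to 1307 to 1874 in TgSREBP-1a and Scap knockout and to 7999 to 22090 in the other pools.

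Profiles over the 5 group means were compared across all genes, by the root mean square difference after each gene was centred on its mean, among genes spanning at least 50% of the span of the gene in question. With 5 points per profile and 735 to 6985 candidates, close matches arise easily, so the names below are a description. The nearest to Egr1 were Actb (beta actin), Cdc20 (an activator of the anaphase complex) and Krtdap (a keratinocyte differentiation gene), at 0.161, 0.162 and 0.181. Actb had 10.04 and 10.10 in Scap knockout, against 9.23 and 9.12 in the chow wild type, and Cdc20 had 7.91 and 7.82, against 6.71 and 6.50. Both, like Egr1, were highest in Scap knockout.

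The nearest to Cxcl1 were Gsn (the actin-severing protein gelsolin), Myl1 (a muscle myosin light chain) and Sprr3 (an epithelial envelope protein), at 0.21, 0.26 and 0.302. Gsn had 5.98 and 5.99 in TgSREBP-1a, against 7.0 and 6.90 in wild type, and 7.02 and 7.12 in Scap knockout, against 6.27 and 6.44 in the chow wild type. The nearest to Myc were Plxnd1 (a semaphorin receptor), Xiap (a caspase inhibitor) and Cd99 (a surface glycoprotein), at 0.0555, 0.0616 and 0.0654. Fam50a, Pon2 and Ergic3 were nearest to Fos, Sec22b, Anxa1 and Cdca8 to Jun, and Selenov, Bet1l and Pak3 to Junb, all with spans of at most 0.50. None of the 6 genes was among the 3 nearest of another, and Egr1 and Cxcl1, both highest in Scap knockout, were 0.522 apart, with a correlation of 0.57 over the 5 group means, which share arrays and 2 wild type pools.

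**Figure D5:**
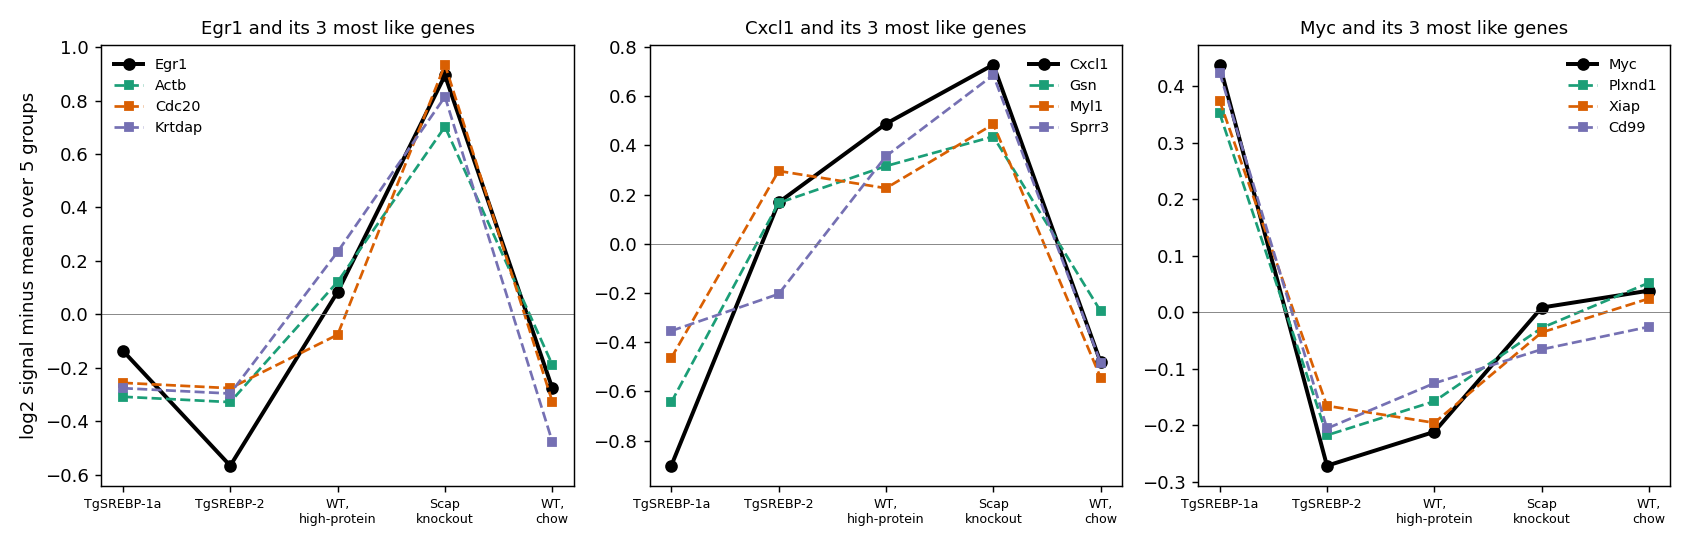
The mean log2 signal of each group minus the mean over the 5 groups (vertical axis) is plotted for Egr1, Cxcl1 and Myc (black) and for the 3 genes most like each (coloured). Egr1 and its neighbours peak in Scap knockout, Cxcl1 and Gsn are lowest in TgSREBP-1a, and Myc and its neighbours are highest there.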

How the data were processed

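Liver RNA pools of 5 groups were measured on Affymetrix MG_U74Av2 arrays, 2 arrays per pool. The authors deposited log2 signals for 12488 probe sets; RMA is the method named per the submitters' processing notes (its version is not given in the sources used here), whereas the design text speaks of Microarray Suite 5.0, a program with linear output. Values of 2.68 to 14.03 with array medians of 6.37 to 6.40 fit log2 values normalized between arrays. Symbols came from the platform annotation and were updated by gene ID through RefSeq (10817 of 10833 with 1 symbol matched; 396 with several symbols, 1193 with none and 66 controls were left out). For each of 8251 genes the probe set with the highest mean was kept.

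limma 3.58.1 (R 4.3.3; lmFit, eBayes) was fitted to all 10 arrays without a block, with a coefficient for each group, which left 5 residual degrees of freedom, and 7 contrasts were adjusted by Benjamini-Hochberg over all genes. Groups share 1 variance per gene, although duplicates were less alike in the transgenic set. The script was tested on simulated data. Deviations of same-numbered arrays correlated at 0.46, 0.61 and 0.60 in the transgenic set and 0.30 in the Scap set, but at -0.48 to -0.12 between sets. The reported fit left this pairing out, and a block by array number within each set was tried as an alternative. Other alternatives were leaving out arrays, separate fits, 2 normalizations, a filter on dim genes, other probe sets, another spread estimate and no minimum fold. No separate cultures or animals stand behind duplicates.

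The members, gene lists and tests were chosen with earlier results of these data known. The named genes are the 6 members, up to 4 called genes per list and comparison, and the 3 genes most like each member; Btg1 and the genes of the closing section were named outside this rule after their values were seen. Promoters come from RefSeq, build GRCm38.p6.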

Additional observations from a re-analysis of the deposited data

Results flagged for a closer look

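Differences of pools that were not equal between comparisons stood out for Egr1, Cxcl1 and Myc in the limma fit over all genes. Each genotype is 1 pool, so the p-values cover hybridisation error only and do not extend to genotypes. The TgSREBP-1a pool minus the TgSREBP-2 pool was -1.07 for Cxcl1 (adjusted p = 0.00431) and 0.71 for Myc (adjusted p = 0.00278). The TgSREBP-1a difference from its wild type pool minus the Scap knockout difference from its own was -1.38 for Egr1, -2.60 for Cxcl1 and 0.68 for Myc (adjusted p = 0.000177, 0.000131 and 0.0273). That of Myc was not called in 5 of 10 fits with 1 array left out (adjusted p up to 0.121). The TgSREBP-2 difference minus the Scap knockout difference was -1.81 for Egr1 and -1.53 for Cxcl1 (adjusted p = 3.87e-05 and 0.00843), and that of Cxcl1 had an adjusted p of 0.0572 without replicate 2 of the chow wild type. On the second probe sets the Cxcl1 differences were -0.82, -1.74 and -0.92 in the same order of comparisons, all called, and those of Egr1 were 0.42 and 0.13, not called.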

How the results depend on the processing

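With the replicate number as a block within each set, 42 of 42 values of the 6 genes kept direction and side of the threshold; Cxcl1 in Scap knockout, for example, had an adjusted p = 1.26e-05. Direction and side of the threshold were also kept by 42 of 42 with arrays centred on their median and with a trended robust spread. They were kept by 24 of 24 in separate fits and by 28 of 28 without the lowest 25% of genes, which leaves out Fos and Myc. Without a minimum fold 1366, 417, 234, 911 and 1869 genes were called for TgSREBP-1a, TgSREBP-2, Scap knockout, the transgenic pools and the wild type pools, in place of 608, 212, 137, 428 and 464. On the dimmer probe set the sign turned for Egr1 in TgSREBP-1a (0.30), TgSREBP-2 (0.01), Scap knockout (-0.11), the wild type pools (-0.13) and both differences from the Scap effect (0.42 and 0.13). It turned for Fos in TgSREBP-2 (-0.26), Scap knockout (0.46), the transgenic pools (0.50), the wild type pools (0) and both differences from the Scap effect (-0.23, and -0.72, which was called), and for Junb between the transgenic pools (-0.03). With the mean of all probe sets it turned for Egr1 in TgSREBP-1a (0.04) and for Fos in Scap knockout (0.21), the transgenic pools (0.22) and the TgSREBP-2 difference from the Scap effect (-0.19); Egr1 lost its calls in TgSREBP-2 (-0.32), Scap knockout (0.52) and the TgSREBP-1a difference from the Scap effect (-0.48). Quantile normalization turned Myc in the TgSREBP-2 difference from the Scap effect (0.01). With 1 array left out, values near 0 crossed it: Myc at -0.16 to 0.05 in TgSREBP-2, -0.12 to 0.07 in Scap knockout and -0.14 to 0.08 for their difference, Fos at -0.16 to 0.09 in Scap knockout and -0.14 to 0.04 between the transgenic pools, and Junb at -0.08 to 0.19 there. The cause of these turns was not tested. The number of arrays limits the precision.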

Other observations

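The wild type pools on the high-protein diet and on chow also differed in genes related to the 6, with diet, age, injections and possibly strain not told apart. Cell type markers moved in the same comparison: 6 of 7 exocrine pancreas markers were called higher on the high-protein diet (median 0.90), and 4 of 11 macrophage markers were called lower (median -0.53, with 11 at an unadjusted p under 0.05). Their part in the values below was not tested. Of all genes, 1.28% were called higher and 4.34% lower on the high-protein diet. Of 20 NF-kappa B route genes 3 were called, all higher. Saa2 had 11.96 and 11.81 on the high-protein diet, against 8.74 and 9.05 on chow (2.99 ± 0.12), and its other probe set, 100333_at, gave 2.28. Lcn2 had 7.24 and 6.99, against 5.58 and 5.56 (1.55 ± 0.12). Il1r1, the interleukin 1 receptor, had 7.68 and 7.29, against 6.37 and 6.36 (1.12 ± 0.15), and Socs3, a brake on cytokine signalling, was 0.74 ± 0.10 higher, with 0.21 on its dimmer probe set. Saa3 of the NF-kappa B list went the other way, with 6.96 and 6.84 on the high-protein diet, against 7.43 and 7.46 on chow (-0.54 ± 0.09, adjusted p = 0.00252), below 1.5-fold.

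Other genes were lower on the high-protein diet. Sgk1 had 5.93 and 5.61, against 6.81 and 6.66 on chow (-0.97 ± 0.15), and Nfe2l2 had 6.69 and 6.73, against 7.61 and 7.67 (-0.93 ± 0.11). Both transgenic pools lay above wild type of the same diet for Nfe2l2, at 8.27 and 8.02 in TgSREBP-1a and 7.12 and 6.91 in TgSREBP-2, although only TgSREBP-1a was called. Cxcl9 had 5.14 and 4.53, against 5.95 and 6.17 (-1.23 ± 0.18), and Ccl9 9.16 and 8.94, against 9.79 and 9.91 (-0.80 ± 0.11). Between the wild type pools 106 genes were called higher and 358 lower on the high-protein diet.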
